A study of Mus musculus with 6 samples.

Results

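The BCL2 family decides whether the outer membrane of mitochondria is opened, the step that commits a cell to apoptosis. Survival members (BCL2, BCL-XL, MCL1 and A1) hold the pore-forming members BAX and BAK in check. BH3-only members such as BIM and BID free or activate BAX and BAK, and BID does so after caspase cleavage. MCL1 is a short-lived protein on which many myeloid leukemias and neutrophils depend, and A1 is best known from granulocytes and activated lymphocytes. The genes described here are 10 members chosen by symbol from the 56748 genes of the deposited count table. They comprise 6 survival genes (Mcl1, Bcl2, Bcl2l1, and the A1 copies Bcl2a1a, Bcl2a1b and Bcl2a1d) and 4 death genes (Bax, Bak1, Bid and Bcl2l11, the gene of BIM). All 10 passed the filter on low counts, with 17 to 23648 counts per library.

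The libraries were bulk RNA-seq of mouse leukemia carrying MLL-AF9, a fusion of a histone methyltransferase with AF9 that drives acute myeloid leukemia. Of the 6, 3 were labelled Rbm5 KO (numbers 31, 32 and 40) and 3 Rbm5 WT (numbers 25, 27 and 29), and MLL-AF9 was shared by both groups. RBM5 is an RNA-binding splicing factor, and the study asked how its loss alters the self-renewal program of MLL leukemia. The labels describe the cells as whole bone marrow, as primary leukemia cells from marrow and, in one protocol text, as cultured cells. They give neither the age of the mice nor the way Rbm5 was deleted. The labels speak of independent replicates without saying whether each came from its own mouse, so p-values measure the spread between these libraries.

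Several facts of the libraries bear on every direction below. Rbm5 itself was at 245 to 269 CPM (counts relative to library size, scaled by TMM factors) in the libraries labelled KO and at 174 to 228 CPM in those labelled WT, so the targeted gene was not lower. Whether the counted exons include the deleted part is not stated, and KO and WT below mean the libraries labelled so. Ddx3y, a Y-linked gene, had 2645 to 3311 counts in KO libraries and 0 in each WT library, while Xist was at no more than 192 CPM in KO and 1269 to 1625 CPM in WT, so sex and the KO label cannot be told apart; 0 of the 10 members lie on X or Y. Total counts per library were 26359299 to 31807588. Progenitor genes were present (their 10 listed genes summed to 4759 to 6536 CPM in KO and 3434 to 4795 CPM in WT), with 3 higher, 1 lower and 6 not past the test. Erythroid genes were near 0, at no more than 5.84 CPM summed over 10 genes in any library. Mature neutrophil markers were far higher in KO, where 18 genes summed to 13650, 22130 and 30660 CPM in libraries 31, 32 and 40, against 1398, 3293 and 4178 CPM in WT libraries 25, 27 and 29. In bulk RNA, fewer cells of a type and less RNA per cell cannot be told apart.

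The A1 copies are printed first because their coding sequences differ at only a handful of bases. The untranslated parts of their transcripts were not compared. Each coding sequence is 519 bases long, and the copies differ from one another at 12 positions, 7 of them within the first 100 bases of exon 1. These bases (GENCODE M21 annotation of GRCm38) are given below with the positions that differ between copies in capitals, for Bcl2a1a at chr9:88957051-88957150 on the plus strand, Bcl2a1b at chr9:89199360-89199459 on the plus strand and Bcl2a1d at chr9:88731620-88731719 on the minus strand.
Bcl2a1a: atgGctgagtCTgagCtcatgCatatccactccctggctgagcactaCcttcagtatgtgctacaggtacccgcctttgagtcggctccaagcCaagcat
Bcl2a1b: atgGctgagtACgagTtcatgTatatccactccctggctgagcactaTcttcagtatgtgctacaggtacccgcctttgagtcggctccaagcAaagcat
Bcl2a1d: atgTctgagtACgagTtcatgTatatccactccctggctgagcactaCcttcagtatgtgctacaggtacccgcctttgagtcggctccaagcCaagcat
Over the whole coding sequence, Bcl2a1a and Bcl2a1b were 97.9% identical, Bcl2a1a and Bcl2a1d 98.7%, and Bcl2a1b and Bcl2a1d 98.8%. The longest stretch without any difference ran for 217 bases. A read inside such a stretch cannot be given to 1 copy by its sequence, so the count of each copy is uncertain and their sum is given beside them.

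Mcl1 and Bcl2a1a were higher and Bid was lower in the libraries labelled KO, and the other 7 members did not pass the test. The count of 3 of 10 members past an adjusted p of 0.05 (edgeR quasi-likelihood test, Benjamini-Hochberg over 15963 genes) stands beside a background of 8.57% of all genes tested, with 2 members higher (5.45% of all genes) and 1 lower (3.12%). Groups did not overlap for 5 of the 10 members, 4 higher and 1 lower in KO, where 33.7% of all genes did not overlap. The median log2 fold change, KO minus WT, was 0.12 over the members and -0.01 over all genes. The calls rested on few libraries, with 0 to 2 members called when 1 library was left out. Over all genes the same step left 347 to 1227 calls of 1368.

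**Figure D1:**
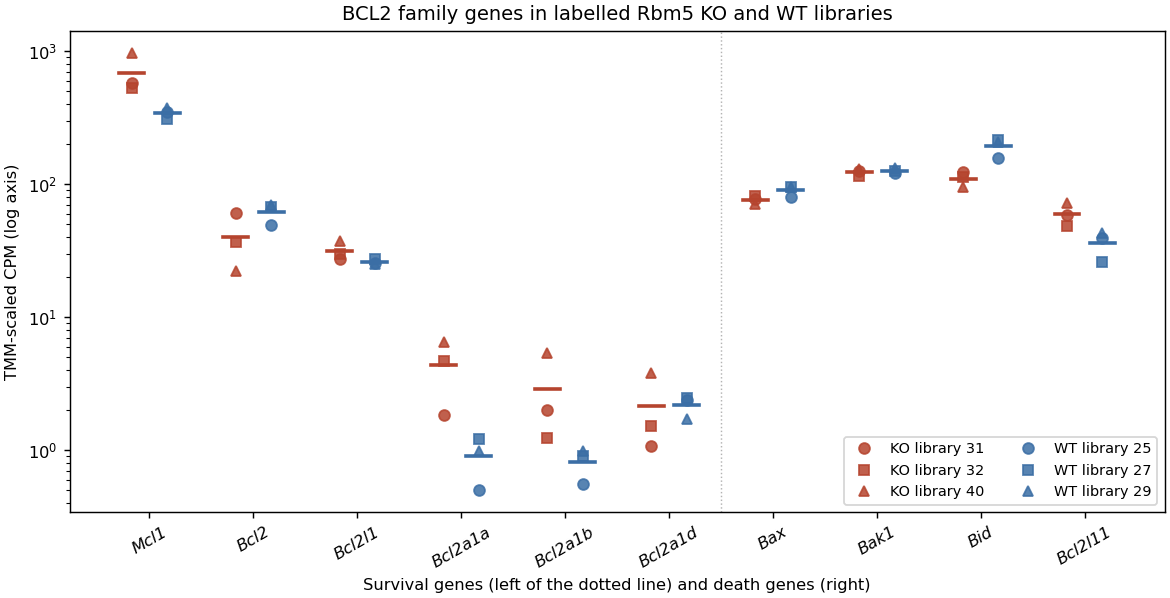
Level of each BCL2 family gene in each library, as TMM-scaled CPM on a log axis, with KO libraries (red) left of WT libraries (blue) and bars at the group means (n = 3 each). The KO points of Mcl1, Bcl2a1a, Bcl2a1b and Bcl2l11 all lie above their WT points, those of Bid all lie below, and library 40 is the highest KO point for Mcl1, the A1 copies and Bcl2l11 and the lowest for Bcl2 and Bid.

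Mcl1 (ENSMUSG00000038612, chromosome 3, 95566099 to 95570487, plus strand; all gene positions are the deposited table's own, which do not match GRCm38 throughout) was at 574, 525 and 966 CPM in KO libraries 31, 32 and 40. In WT libraries 25, 27 and 29 it was at 350, 311 and 374 CPM. The KO values were all above the WT values, and library 40 stood well above the other KO libraries. Mcl1 rose 2.00-fold in the libraries labelled KO (688 ± 242 CPM, against 345 ± 31.8 CPM in WT, SD, n = 3 each), a log2 fold change of 1.00 ± 0.23 SE with a 95% interval of 0.46 to 1.54 (edgeR adjusted p = 0.0433). Without KO library 40 the log2 fold change was 0.67 and still passed (adjusted p = 0.0411), and it passed without KO library 32 (0.0298). It did not pass without KO library 31 (0.0688) or WT library 25, 27 or 29 (0.114, 0.118 and 0.0925), and the log2 fold change reached 1.16 at most. Testing every gene with any count gave an adjusted p of 0.139.

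Mcl1 mRNA also turns over fast and rises with stress, so the handling genes are given beside it. The 11 listed immediate early genes summed to 6127, 7636 and 19200 CPM in KO libraries 31, 32 and 40, against 4136, 3664 and 10190 CPM in WT libraries 25, 27 and 29. KO library 40 was the highest of all for both. Among the WT libraries the order was the same for both, with library 29 highest, then library 25, then library 27. Some other orders differed. WT library 29 was above KO libraries 31 and 32 in the immediate early sum but below both for Mcl1. KO library 31 was below KO library 32 in that sum but above it for Mcl1. Of these 11 genes 0 passed the edgeR test and 2 had an unadjusted p under 0.05 (26.9% of all genes tested did, the background for each such count below), with a median log2 fold change of 0.88. The part of the neutrophil markers and of these genes in the Mcl1 difference was not tested.

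Bcl2, the founding survival gene (ENSMUSG00000057329, chromosome 1, 106465908 to 106642004, minus strand), spread widely among the KO libraries, at 60.4, 36.6 and 22.4 CPM in libraries 31, 32 and 40. WT libraries 25, 27 and 29 had 48.9, 67.8 and 69.8 CPM. KO library 31 lay inside the WT range while libraries 32 and 40 lay below it, so the groups overlapped. The log2 fold change was -0.64 with a 95% interval of -1.49 to 0.21 (edgeR adjusted p = 0.301), and it was -1.08 without KO library 31 and -0.35 without KO library 40.

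Bcl2l1, which encodes BCL-XL (ENSMUSG00000007659, chromosome 2, 152622588 to 152673648, minus strand), varied little. It was at 27.1, 29.9 and 37.3 CPM in KO libraries 31, 32 and 40, against 25.6, 27.5 and 24.99 CPM in WT libraries 25, 27 and 29. KO library 31 fell within the WT range. The log2 fold change of 0.27 had a 95% interval of -0.06 to 0.60 (edgeR adjusted p = 0.265). Counts were per gene, which leaves the long survival form and the short death-promoting form of this transcript merged.

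Of the A1 copies 1 passed the test. Bcl2a1a (ENSMUSG00000102037, chromosome 9, 88838953 to 88844472, plus strand) had 49, 123 and 158 counts in KO libraries 31, 32 and 40, against 17, 35 and 31 counts in WT libraries 25, 27 and 29. All KO values were above all WT values. It rose to 4.33 ± 2.34 CPM in the libraries labelled KO, against 0.899 ± 0.365 CPM in WT (log2 fold change 2.27 ± 0.54 SE, edgeR adjusted p = 0.0423). This call held in 1 of the 6 fits that left out a library, the one without KO library 31 (adjusted p = 0.0346), and reached 0.140 without KO library 40. It was 0.0697 by limma-voom.

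Bcl2a1b (ENSMUSG00000089929, chromosome 9, 89081262 to 89089880, plus strand) had 54, 32 and 131 counts in KO libraries 31, 32 and 40, against 19, 26 and 31 counts in WT libraries 25, 27 and 29. The groups did not overlap, though KO library 32 was nearly level with the highest WT library. Its log2 fold change of 1.81 (95% interval 0.47 to 3.14) did not pass over all genes (edgeR adjusted p = 0.0929), while DESeq2 gave 0.0249.

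Bcl2a1d (ENSMUSG00000099974, chromosome 9, 88605338 to 88613967, minus strand) had 29, 40 and 93 counts in KO libraries 31, 32 and 40, against 81, 71 and 54 counts in WT libraries 25, 27 and 29. Here KO libraries 31 and 32 were below every WT library and KO library 40 was above, and the log2 fold change was -0.04 (95% interval -1.16 to 1.09, edgeR adjusted p = 0.971).

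Bcl2a1d was the main copy by mean share in WT and had the lowest mean share in KO, although in KO library 32 Bcl2a1b had fewer counts. Bcl2a1d made up 22.0%, 20.5% and 24.3% of all A1 counts in KO libraries 31, 32 and 40, against 69.2%, 53.8% and 46.6% in WT libraries 25, 27 and 29. The groups were far apart, and the KO libraries lay within a few percentage points of each other. The mean share was 22.3% ± 1.94 in KO and 56.5% ± 11.6 in WT (SD, n = 3 each; exact two-sided permutation p = 0.10, the smallest this design allows, and 0.15 with Benjamini-Hochberg adjustment over the 3 copies). Bcl2a1a took 47.2% ± 13.9 in KO and 22.6% ± 6.98 in WT (exact p = 0.10), and Bcl2a1b 30.5% ± 12.7 and 20.9% ± 5.34 (exact p = 0.30). Reads shared between copies are counted somewhere, so these shares hold for the deposited counts and not necessarily for the transcripts.

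**Figure D2:**
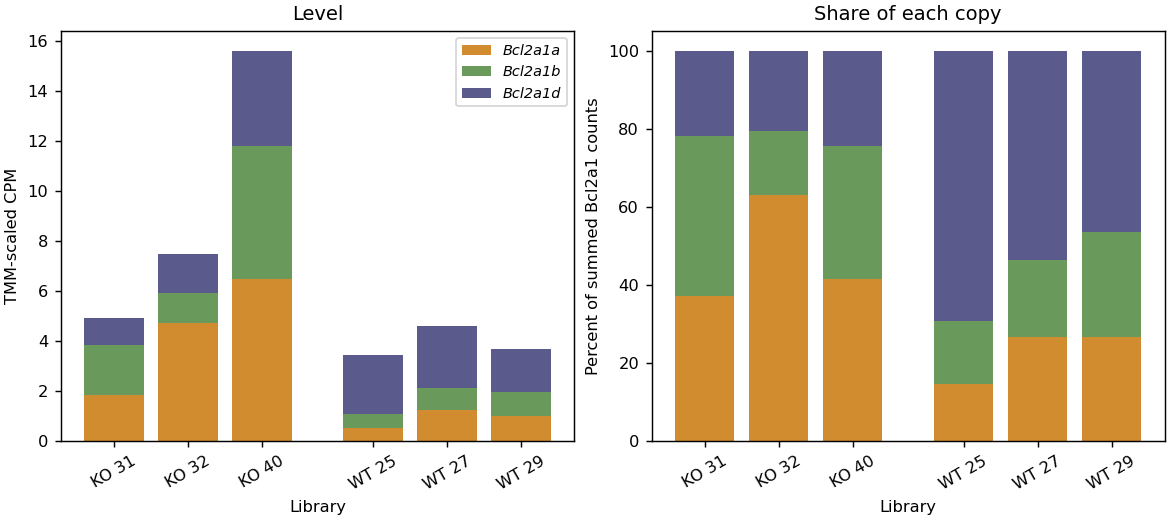
A1 copies in each library, with KO libraries left of WT libraries. The left panel stacks TMM-scaled CPM and shows KO library 40 far above the rest, and the right panel stacks each copy's percent of all A1 counts and shows Bcl2a1d at 20.5% to 24.3% in KO and 46.6% to 69.2% in WT.

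The summed A1 counts were 132, 195 and 382 in KO libraries 31, 32 and 40, against 117, 132 and 116 in WT libraries 25, 27 and 29. Scaled for library size they were 4.91, 7.45 and 15.6 CPM in KO and 3.44, 4.58 and 3.68 CPM in WT, so KO library 31 lay just above the WT range and library 40 far above it. Per length, as TPM, KO library 31 (19.1) lay inside the WT range, whose highest value was 19.5 in library 27. With the copies entered as 1 summed gene, the log2 fold change was 1.26 ± 0.42 SE (95% interval 0.30 to 2.22, edgeR adjusted p = 0.102; exact permutation p = 0.10, the smallest possible). Without KO library 40 it was 0.67, and DESeq2 gave an adjusted p of 0.0210. The summed neutrophil markers, like the A1 sum, were highest in KO library 40 (30660 CPM) and were above every WT library in KO library 31 (13650 CPM). Not every single marker did so, and Mmp9 was highest in KO library 31 (864 CPM, against 587 CPM in KO library 40). The part of the markers in the A1 sum was not tested. Bcl2a1c had 0 counts in all 6 libraries.

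The stretches upstream of the A1 copies are shown because the copies differ there in the PU box, GAGGAA, the element bound by PU.1, a myeloid factor encoded by Spi1. They are taken from RefSeq promoter windows (GRCm38.p6), with matches to GAGGAA on either strand in capitals, for Bcl2a1a at chr9:88956789-88956870 on the plus strand, Bcl2a1b at chr9:89199098-89199179 on the plus strand and Bcl2a1d at chr9:88731900-88731975 on the minus strand.
Bcl2a1a: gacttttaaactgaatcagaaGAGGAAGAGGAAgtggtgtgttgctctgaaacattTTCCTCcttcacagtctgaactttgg
Bcl2a1b: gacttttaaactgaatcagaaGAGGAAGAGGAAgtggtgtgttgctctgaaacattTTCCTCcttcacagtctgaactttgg
Bcl2a1d: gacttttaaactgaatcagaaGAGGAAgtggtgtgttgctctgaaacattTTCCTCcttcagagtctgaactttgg
Bcl2a1a and Bcl2a1b carry 2 adjoining forward matches where Bcl2a1d carries 1, and within the stretch each copy has 1 match on the other strand. The window of Bcl2a1b holds 1 more on that strand, just past its start. GAGGAA occurred in 28.3% of all 32851 RefSeq promoter windows (250 bases before to 50 after each start, both strands) and in 6 of the 13 windows of the 10 members. The 3 A1 copies, whose stretches are nearly the same, account for 3 of these 6, and Bak1, Bcl2 and Bid for the others. The copies are thus not separate cases. Spi1 was at 424 ± 34.3 CPM in KO and 315 ± 14.5 CPM in WT (log2 fold change 0.43, edgeR adjusted p = 0.0368, and 0.114 at most with 1 library left out). Elements of other factors were found in fewer member windows. The STAT element TTCNNNGAA was in 0 of 13 (8.30% of all windows), the E-box CACGTG in 1, that of Bax (7.15%), and the NF-kB consensus in 1, that of Bcl2l1 (4.51%). A match describes letters only, and its part in the counts was not tested.

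Of the death genes Bid alone passed the test. Bid (ENSMUSG00000004446, chromosome 6, 120868891 to 120893814, minus strand), whose protein links death receptor caspases to mitochondria, was at 123, 112 and 94.8 CPM in KO libraries 31, 32 and 40. WT libraries 25, 27 and 29 had 158, 214 and 207 CPM. All KO values lay below all WT values, with WT library 25 nearest to them. Bid fell to 110 ± 14.3 CPM in the libraries labelled KO, against 193 ± 30.5 CPM in those labelled WT (SD, n = 3 each), a log2 fold change of -0.81 ± 0.15 SE with a 95% interval of -1.14 to -0.48 (edgeR adjusted p = 0.0193). It stayed past the threshold in 4 of 6 fits that left out a library, with adjusted p of 0.0703 without KO library 40 and 0.0513 without WT library 29. Bcl2l13, on the other strand, overlaps Bid over 913 bases and had 57.9% as many counts, and the labels do not say whether reads were counted by strand, which leaves reads in that overlap uncertain. Gm44260, on the same strand as Bid, overlaps it over 2094 bases and had 3.62% as many counts. Counting by strand would not separate those reads.

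Chromosome 6 as a whole stood higher in WT libraries 27 and 29. Centred on the mean of the 6 libraries, the median of 392 other chromosome 6 genes was -0.10, -0.13 and -0.11 on the log2 CPM scale in KO libraries 31, 32 and 40, against -0.14, 0.25 and 0.23 in WT libraries 25, 27 and 29. Bid on the same scale was at -0.23, -0.36 and -0.61 in KO and 0.13, 0.56 and 0.52 in WT. After the chromosome 6 median of each library was subtracted, a step added after the data were seen, Bid was at -0.13, -0.23 and -0.49 in KO and 0.26, 0.31 and 0.28 in WT. The difference in means was then -0.57 (exact permutation p = 0.10, the smallest possible), and the groups still did not overlap. Against WT library 25 alone, an arm of 1 library assumed to vary like the KO libraries, the log2 fold change was -0.53 (edgeR adjusted p = 0.164).

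Of the 392 other chromosome 6 genes, 7 were called higher and 48 lower in KO, against 593 higher and 213 lower of 7858 genes on other chromosomes (all with a mean log2 CPM of at least 4). Genes close to Bid went in both directions. Of 20 tested genes within 1 Mb, Mical3, Hdhd5 and Tuba8 fell, Slc6a12 rose and 16 did not pass, with a median log2 fold change of -0.14. These genes were named after their values were seen.

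**Figure D3:**
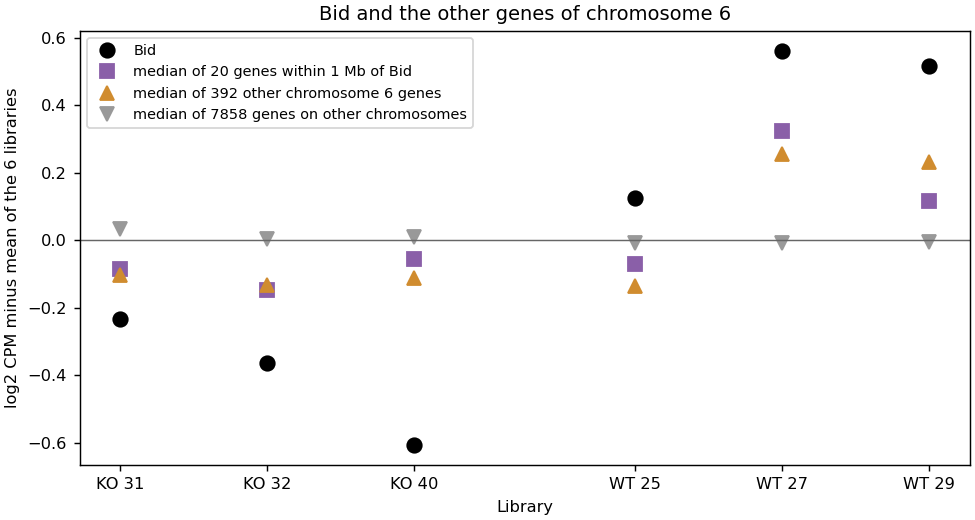
Level of Bid, and median level of the other chromosome 6 genes, of genes within 1 Mb of Bid and of genes on other chromosomes, as log2 CPM minus the mean of the 6 libraries, with KO libraries left of WT libraries. The chromosome 6 median is raised in WT libraries 27 and 29 by 0.25 and 0.23, and Bid lies below it in each KO library and above it in each WT library.

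Bcl2l11 (ENSMUSG00000027381, chromosome 2, 127967958 to 128004467, plus strand) encodes BIM, which binds every survival member. It was at 58.2, 48.3 and 71.9 CPM in KO libraries 31, 32 and 40, against 39.6, 26.2 and 42.8 CPM in WT libraries 25, 27 and 29. The groups did not overlap, with KO library 32 close to WT library 29. The log2 fold change of 0.72 ± 0.21 SE (95% interval 0.22 to 1.21) did not pass over all genes (edgeR adjusted p = 0.0802), although DESeq2 gave 0.0178. Relative to Bcl2 on a per-length scale, the ratio of Bcl2l11 to Bcl2 was 1.10, 1.51 and 3.66 in KO libraries 31, 32 and 40, against 0.924, 0.440 and 0.700 in WT libraries 25, 27 and 29. That ratio was above 1 in every KO library and below 1 in every WT library. The split at 1 depended on length, since in KO library 31 the CPM of Bcl2l11 (58.2) was below that of Bcl2 (60.4).

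The pore-forming genes differed little. Bax (ENSMUSG00000003873, chromosome 7, 45111121 to 45116322, minus strand) was at 77.1, 80.9 and 70.5 CPM in KO libraries 31, 32 and 40, against 80.6, 94.8 and 95.8 CPM in WT libraries 25, 27 and 29. KO library 32 and WT library 25 were level, and the log2 fold change of -0.25 had a 95% interval of -0.49 to -0.01 (edgeR adjusted p = 0.175). Bak1 (ENSMUSG00000057789, chromosome 17, 27238784 to 27247983, minus strand) was at 125, 115 and 129 CPM in KO libraries 31, 32 and 40, against 120, 125 and 132 CPM in WT libraries 25, 27 and 29. Its groups overlapped, and its 95% interval of -0.23 to 0.17 around a log2 fold change of -0.03 spanned 0 (edgeR adjusted p = 0.857). Ggnbp1 and Gm50253 are annotated across all of Bak1 on the other strand, with 3.64% and 1.26% as many counts.

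**Figure D4:**
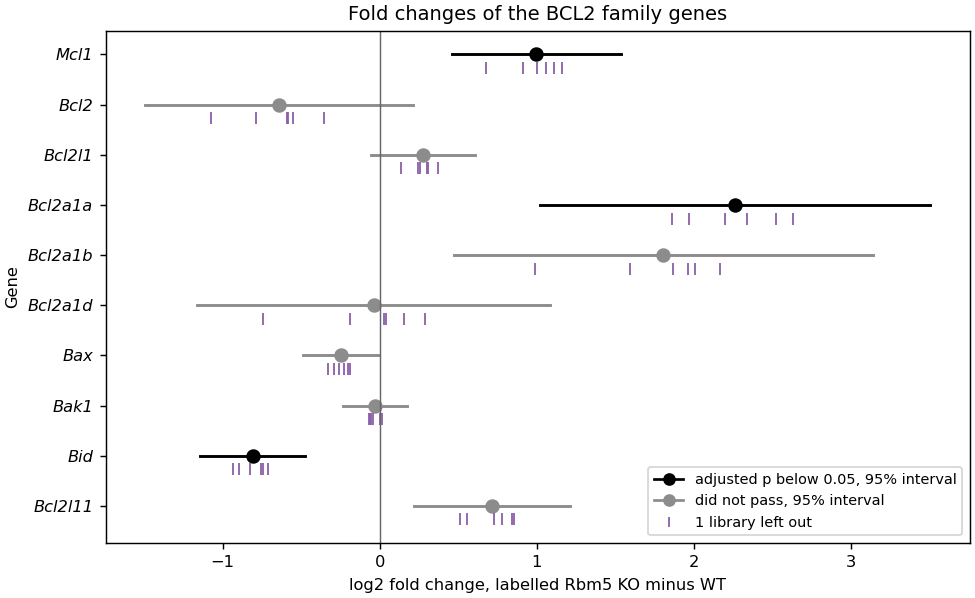
Log2 fold change of each member, KO minus WT, with its 95% interval (black where the edgeR adjusted p is below 0.05, grey otherwise), and purple ticks for the 6 fits that each left out 1 library. Mcl1, Bcl2a1a and Bid stay on their side of 0 in every such fit. So do Bcl2, Bcl2l1, Bcl2a1b, Bax and Bcl2l11, which did not pass, while the ticks of Bcl2a1d and Bak1 fall on both sides.

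Levels were compared between genes per length, as TPM (length-normalised and scaled to the same total in each library) computed from the counts and the table's gene lengths without TMM factors. In KO the order of mean levels was Mcl1 (617 ± 174 TPM), Bak1 (159 ± 7.43), Bax (151 ± 18.8), Bid (96.9 ± 17.8), Bcl2l11 (22.9 ± 3.30), Bcl2l1 (21.2 ± 2.25), Bcl2a1a (16.1 ± 8.05), Bcl2 (13.7 ± 7.13), Bcl2a1b (10.6 ± 7.42) and Bcl2a1d (7.48 ± 4.62). In WT it was Mcl1 (350 ± 21.3 TPM), Bax (199 ± 16.0), Bid (189 ± 28.0), Bak1 (182 ± 4.13), Bcl2 (23.5 ± 3.84), Bcl2l1 (19.8 ± 1.89), Bcl2l11 (15.6 ± 3.39), Bcl2a1d (8.88 ± 2.10), Bcl2a1a (3.81 ± 1.57) and Bcl2a1b (3.45 ± 0.856). Mcl1 led in both groups by more than the spread between libraries. In WT, Bax and Bid, Bid and Bak1, Bcl2 and Bcl2l1, and Bcl2a1a and Bcl2a1b were neighbours closer than the larger of their SDs. In KO this held for Bak1 and Bax and for all neighbours from Bcl2l11 downward, while Bid stood apart from Bax above it. On this scale Bax and Bak1 were lower in every KO library than in every WT library, whereas their TMM-scaled CPM overlapped.

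Mcl1 made up most of the survival pool. It was 90.1%, 88.7% and 90.6% of summed survival TPM in KO libraries 31, 32 and 40, against 87.2%, 82.9% and 86.3% in WT libraries 25, 27 and 29. Bcl2 made up 3.54%, 2.31% and 0.783% in KO and 4.55%, 6.74% and 6.00% in WT. Both shares were without overlap between groups, Mcl1 higher and Bcl2 lower in KO. Shares of Bcl2l1 (3.2%, 3.8% and 2.6% in KO, 4.8%, 5.5% and 4.3% in WT) and of Bcl2a1d were lower without overlap too. All these are parts of 1 pool filled mostly by Mcl1, so a larger Mcl1 share leaves less for the others. The levels of Bcl2, Bcl2l1 and Bcl2a1d themselves overlapped between groups. Among the death genes, Bid was 24.3%, 23.1% and 19.9% of summed TPM in KO libraries 31, 32 and 40, against 29.6%, 34.3% and 32.5% in WT libraries 25, 27 and 29.

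Summed survival TPM, with Mcl1 included, was higher and summed death TPM lower in every KO library than in every WT library. The survival genes summed to 601, 556 and 902 TPM in KO libraries 31, 32 and 40, against 422, 394 and 414 TPM in WT libraries 25, 27 and 29. The death genes summed to 460, 440 and 388 TPM in KO, against 542, 630 and 584 TPM in WT. Their ratio does not depend on how libraries were scaled. The ratio of survival to death TPM was 1.31, 1.26 and 2.33 in KO (1.63 ± 0.602, SD, n = 3) and 0.779, 0.626 and 0.708 in WT (0.704 ± 0.0765). It was above 1 in each KO library and below 1 in each WT library, with no test since the members were a chosen list. Without length, the ratio of summed CPM was 1.74, 1.68 and 2.84 in KO libraries 31, 32 and 40, against 1.07, 0.894 and 0.989 in WT libraries 25, 27 and 29, so the groups did not overlap but WT library 25 was above 1. Summed without Mcl1, the survival genes were at 59.43, 62.72 and 85.03 TPM in KO libraries 31, 32 and 40. In WT libraries 25, 27 and 29 this sum was 53.85, 67.59 and 56.87 TPM, so the groups overlapped. Without Mcl1 the ratio of survival to death TPM was 0.129, 0.143 and 0.219 in KO and 0.0994, 0.107 and 0.0973 in WT. Among the death genes Bcl2l11 went against the lower sum, with a mean of 22.85 TPM in KO and 15.6 TPM in WT. By TMM-scaled CPM, Bid alone of the death genes was lower in KO without overlap. On that scale Bax and Bak1 overlapped between groups and Bcl2l11 was higher in KO. A death sum without Bid was not made, so the lower sum does not show that the death genes fell as a group.

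**Figure D5:**
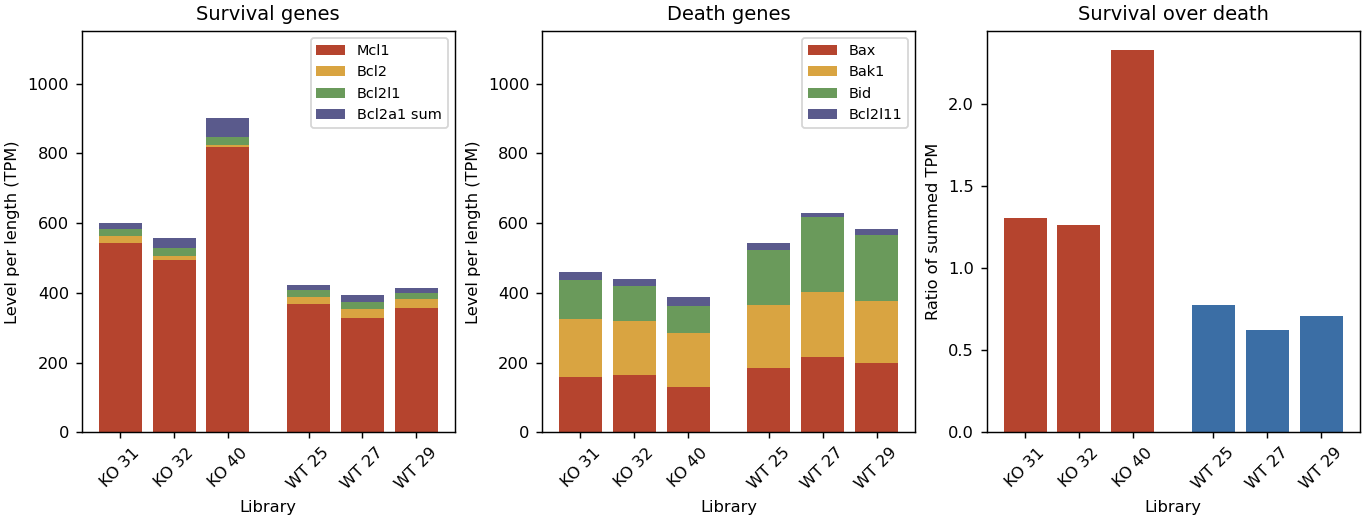
Summed levels per length (TPM) of survival genes and of death genes, stacked by gene, and their ratio, in each library with KO left of WT. Survival sums are 556 to 902 TPM in KO and 394 to 422 TPM in WT, death sums are 388 to 460 TPM in KO and 542 to 630 TPM in WT, and Mcl1 fills most of each survival bar.

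The rest of the family and the steps around it gave few calls. Of 5 tested other BH3-only genes, 0 passed the edgeR test and 0 had an unadjusted p under 0.05. Among these sensors of cell damage, Bbc3, the gene of PUMA, was at 33.05 ± 18.98 CPM in KO and 21.04 ± 8.22 CPM in WT. Bmf, which responds to loss of attachment, was at 26.9 ± 5.28 CPM in KO and 21.1 ± 10.2 CPM in WT. Pmaip1, the gene of NOXA and the partner of MCL1, was at 526 ± 122 CPM in KO and 454 ± 204 CPM in WT. Hrk had 1 count in all. Of 5 tested other multidomain relatives, 0 passed and 2 had an unadjusted p under 0.05. Of these, Bok, a BAX relative, was at 0.233 ± 0.138 CPM in KO and 1.47 ± 1.10 CPM in WT (log2 fold change -2.64, edgeR adjusted p = 0.0578). Bcl2l12 was at 15.6 ± 2.55 CPM in KO and 20.7 ± 2.66 CPM in WT (adjusted p = 0.180). The mitophagy receptor gene Bnip3l was at 180 ± 21.2 CPM in KO and 124 ± 19.4 CPM in WT (log2 fold change 0.54, adjusted p = 0.0516), and with Bnip3 left 0 of 2 called and 1 with an unadjusted p under 0.05.

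Downstream of the membrane step, 0 of 14 apoptosome, caspase and inhibitor genes passed the edgeR test, and 4 had an unadjusted p under 0.05. The smallest p belonged to Birc3, the gene of the inhibitor cIAP2 (log2 fold change 0.60, adjusted p = 0.0733), and to Apaf1, the scaffold of the apoptosome (0.29, adjusted p = 0.0813). The list median was 0.02. Of 5 outer membrane partners 0 passed and 1 had an unadjusted p under 0.05, the fission GTPase gene Dnm1l (log2 fold change -0.25, edgeR adjusted p = 0.111), and Vdac1 was at -0.13. Of 6 ubiquitin enzyme genes that act on MCL1, NOXA or BIM, 0 passed and 2 had an unadjusted p under 0.05. These were Btrc at a log2 fold change of -0.40 (edgeR adjusted p = 0.102) and Huwe1, a ligase of MCL1, at -0.25 (adjusted p = 0.108).

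Among 14 transcription factors known to act on the family, Stat3, which drives Mcl1 and Bcl2l1 after cytokine signals, rose and 13 did not pass. Stat3 was at 269 ± 40.3 CPM in KO and 178 ± 3.40 CPM in WT (log2 fold change 0.60 ± 0.12 SE, edgeR adjusted p = 0.0240, and 0.0723 without WT library 27). With 1 library left out the number that rose was 0 to 4. The list median was 0.33, against -0.01 over all genes tested. Genes of the NF-kB family, known to act on Bcl2a1 and Bcl2l1, had log2 fold changes of 1.13 (Relb), 1.05 (Nfkb2), 0.58 (Rel), 0.31 (Nfkb1) and 0.07 (Rela), with edgeR adjusted p of 0.0695, 0.0629, 0.0753, 0.0776 and 0.631. Trp53, which drives Bax and Bbc3, was at -0.04 (adjusted p = 0.878).

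By pattern over the 6 libraries, the genes most like the A1 sum were Ifi207, Ms4a6d, Tlr13, C5ar2 and Slc26a11, among 9751 protein-coding genes with a mean of at least 5 CPM. Their centred log2 CPM differed from it by a root mean square of 0.17 (Ifi207) to 0.22 (Slc26a11). C5ar2, for example, was at 7.88, 10.4 and 29.3 CPM in KO libraries 31, 32 and 40, against 4.00, 6.46 and 5.11 CPM in WT libraries 25, 27 and 29, so it too was highest in library 40. The genes most like Bcl2 were Elovl6, Gbp3, Nup210, Dync2i2 and Poglut3, at 0.16 to 0.21. Nup210, a nuclear pore gene, was at 681, 431 and 390.5 CPM in KO libraries 31, 32 and 40, against 586, 797 and 893 CPM in WT libraries 25, 27 and 29, so KO library 31 lay inside the WT range here too.

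Other cells with distinct BCL2 family use were looked for by their markers. Of 18 mature neutrophil genes, 13 rose by the edgeR test and 5 did not pass, and 6 to 14 rose with 1 library left out. Of 13 monocyte and macrophage genes, 3 rose and 10 did not pass (0 to 3 rose with 1 library left out), with summed levels of 4589 to 6446 CPM in KO and 1805 to 2930 CPM in WT. Lymphocytes, in which Bcl2 is high, left little RNA, with 7 B cell genes summing to 9.71 to 29.9 CPM in KO and 11.7 to 30.4 CPM in WT. The 8 T and NK cell genes summed to 19.1 to 58.4 CPM in KO and 28.8 to 63.6 CPM in WT, most of it Nkg7 (40.4 ± 20.2 CPM in KO, 48.1 ± 18.1 CPM in WT). Of the tested genes, 1 of 3 B cell genes fell and 0 of 4 T and NK cell genes passed, 2 of them with an unadjusted p under 0.05. Of the remaining lists, 1 of 4 erythroid genes rose, 1 of 5 basophil, mast cell and eosinophil genes rose and 0 of 3 stromal and endothelial genes passed, 1 with an unadjusted p under 0.05.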

How the data were processed

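The 6 libraries were sequenced by a commercial company after TRIzol extraction, per the labels' protocols. Values in the deposited table are raw whole-number counts, 1 per gene and library. The submitters' processing notes name Salmon, limma, GRCm38 and mm10 without a role for each. The labels do not say how strand was used. The deposited table's gene length, here classed as another unit, was used for TPM alone. Genes were kept by filterByExpr (minimum count 10, minimum total 15), scaled by TMM and tested with edgeR 4.0.16 (robust quasi-likelihood, R 4.3.3), KO against WT without covariates, with limma 3.58.1 and DESeq2 1.42.0 as alternatives. Each SE is the log2 fold change divided by the square root of F. The A1 copies were also summed before the fit. Shares of A1 counts were compared by exact permutation over libraries. The fit was tested on simulated data. The lowest chi-square per degree of freedom between libraries of a group was 39.3, so all were counted. The members, the 16 other lists and the tests were chosen with earlier results of these data known. Named genes were all members, the tested relatives, and, per further list, up to 4 called genes or the 2 smallest p; some allowed genes are not printed, and the genes near Bid, the NF-kB genes, Trp53 and Nkg7 were named after their values were seen. Patterns were compared on log2 of CPM plus 0.5. Alternatives were other scalings, filters and tools, and leaving out libraries. Of 156 listed symbols, 155 were in the table, and for Ddit3, listed on 2 rows, the longer was used.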

Additional observations from a re-analysis of the deposited data

How the results depend on the processing

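No paired analysis was possible because the KO and WT libraries share no replicate number. With 1 library left out, the members past the threshold numbered 0 to 2, all genes 347 to 1227, the log2 fold change of the A1 sum was 0.67 to 1.56, and the log2 ratio of survival to death TPM 0.869 to 1.37. Without WT libraries 27 and 29 the members called were 0 and all genes 453. DESeq2 called 5 members and 2607 genes, and gave the A1 sum 1.27 (adjusted p = 0.0210), which without a filter on low counts was 1.24 (0.0441) by edgeR; over its other alternatives its adjusted p ranged up to 0.352. Bcl2a1d ranged from -0.742 to 0.286 with 1 library left out, and turned to 0.286, 0.153, 0.0281 and 0.0418 without KO libraries 31 and 32 and WT libraries 25 and 27. Bak1 ranged from -0.0652 to 0.0134, and turned to 0.0134 without KO library 32, 0.00414 without WT library 29 and 0.0192 without WT libraries 27 and 29. The cause was not tested, but each such fit has fewer samples. Total-count scaling shifted the all-gene median log2 fold change by -0.12 and made 46.7% of the calls higher in KO (63.6% with TMM), with the members' 2 higher and 1 lower calls unchanged in number. Of 161 member values under alternatives, 134 kept direction and side of the threshold, a count that includes members that did not pass and stayed so. The called members were less stable. The call of Mcl1 was kept in 10 alternatives and lost in 6, and that of Bcl2a1a was kept in 9 and lost in 7. The call of Bid was kept in 13 and lost in 4. The losses of Bid include the permutation test against the chromosome 6 median, which could not pass in this design. Counts of 17 to 158 per library limit the A1 copies.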
